A study of Mus musculus with 26 samples.

Results

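Gfi1, Barhl1 and Lhx3 are 3 transcription factor genes, chosen by name from the 48709 mouse gene identifiers of the RNA tables. Their RNA was followed in sorted mouse cochlear supporting cells, and the open chromatin and the H3K27ac mark were followed within 100 kb of each gene body. Cochleae of postnatal day 1 were cultured and treated with DAPT, which blocks Notch signalling by inhibiting gamma-secretase, or with DMSO as vehicle. At 24 h the DAPT group and the DMSO group each comprised 3 RNA libraries of cells sorted for Lfng-GFP, a reporter of the supporting cell gene Lfng. At 48 h all cells carried TdTomato (TdT), switched on by Cre recombinase (Lfng-CreER). DAPT-treated cells that also carried Atoh1-GFP, a reporter of the hair cell gene Atoh1, are called permissive (3 RNA libraries). DAPT-treated cells with TdT but no Atoh1-GFP are called nonpermissive (3 RNA libraries), and DMSO-treated cells with TdT but no Atoh1-GFP are the control (2 RNA libraries). ATAC, which maps open chromatin by Tn5 insertion, and H3K27ac CUT&RUN were done at 48 h with 2 libraries in each of these 3 groups. Lfng drives both reporters, so a cell counts as a supporting cell here if Lfng was active, and the permissive gate itself selects for Atoh1 activity. Whether replicates are separate animals is not stated in the labels, and all p-values below are therefore relative to a spread between libraries that may be technical.

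Hair cells, the mechanosensory cells of the cochlea, are specified by the bHLH factor Atoh1, and Notch signalling from hair cells keeps the neighbouring supporting cells from taking the same fate. Gfi1 is a zinc finger repressor that hair cells need to survive and to keep neuronal genes off. Barhl1 is a homeodomain factor needed for hair cell maintenance, and Lhx3 is a LIM homeodomain factor found in hair cells and better known from the pituitary and from motor neurons.

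The RNA libraries held 10666050 to 13158897 expected counts at 24 h and 2165338 to 4896374 at 48 h. The summed level of 7 hair cell markers was 4343 to 7217 CPM (counts scaled to the library total) in DAPT libraries and 1716 to 2087 CPM in DMSO libraries. At 48 h the same sum was 5123 to 6708 CPM in permissive, 300 to 364 CPM in nonpermissive and 151 to 280 CPM in control libraries. The 13 supporting cell markers summed to 6196 to 7916 CPM with DAPT and 13266 to 14235 CPM with DMSO at 24 h, and to 917 to 976 CPM in permissive, 2803 to 3421 CPM in nonpermissive and 4916 to 6217 CPM in control cells at 48 h. Supporting cell markers were thus present in every group, beside hair cell markers that differed between groups in the same direction as the 3 genes. The hair cell markers were Atoh1, Pou4f3, Myo7a, Myo6, Calb2, Pcp4 and Otof. Atoh1-GFP set the gate at 48 h, so the part of Atoh1 in that sum describes the sort. All but Pcp4 also stand in the lists of hair cell factors or differentiation genes below. The part of a changed share of hair cells in the results below was not tested: in bulk libraries, more cells of a type and more RNA per cell cannot be told apart. Time, sort and library kit (poly(A) selection at 24 h, a single-cell kit at 48 h) changed together between the times.

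The comparison at 24 h asked how the 3 genes respond when Notch signalling is blocked. All 3 rose with DAPT, by 2.66-fold to 3.43-fold, while 11.5% of all 15174 genes tested rose and 14.2% fell. Gfi1 was at 146, 180 and 92.0 CPM with DAPT, against 42.7, 43.3 and 51.9 CPM with DMSO. The lowest DAPT library thus lay above the highest DMSO library, and its mean of 139 ± 44.4 CPM stood against 46.0 ± 5.18 CPM (SD, n = 3 each). The log2 fold change of Gfi1 was 1.60 ± 0.22 (SE; adjusted p = 0.000929, edgeR quasi-likelihood test).

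Barhl1 was the lowest of the 3 at 24 h, with 50.0, 59.6 and 36.0 CPM under DAPT, against 15.8, 17.0 and 21.9 CPM under DMSO. Here too no DAPT library overlapped the DMSO libraries, and the log2 fold change was 1.41 ± 0.20 (SE; adjusted p = 0.00111). Lhx3 had the largest change, with 147, 184 and 95.9 CPM under DAPT, against 39.6, 40.0 and 45.1 CPM under DMSO. Its log2 fold change was 1.78 ± 0.21 (SE; adjusted p = 0.000416), and its libraries did not overlap either. In each gene the third DAPT library was the lowest and the second the highest of the DAPT group, so the 3 genes moved together among replicates. Higher values in every DAPT library than in every DMSO library were found for 20.7% of all genes tested. A larger log2 fold change than that of Gfi1, Barhl1 and Lhx3 was reached by 2.44%, 3.08% and 1.98% of the genes tested.

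**Figure D1:**
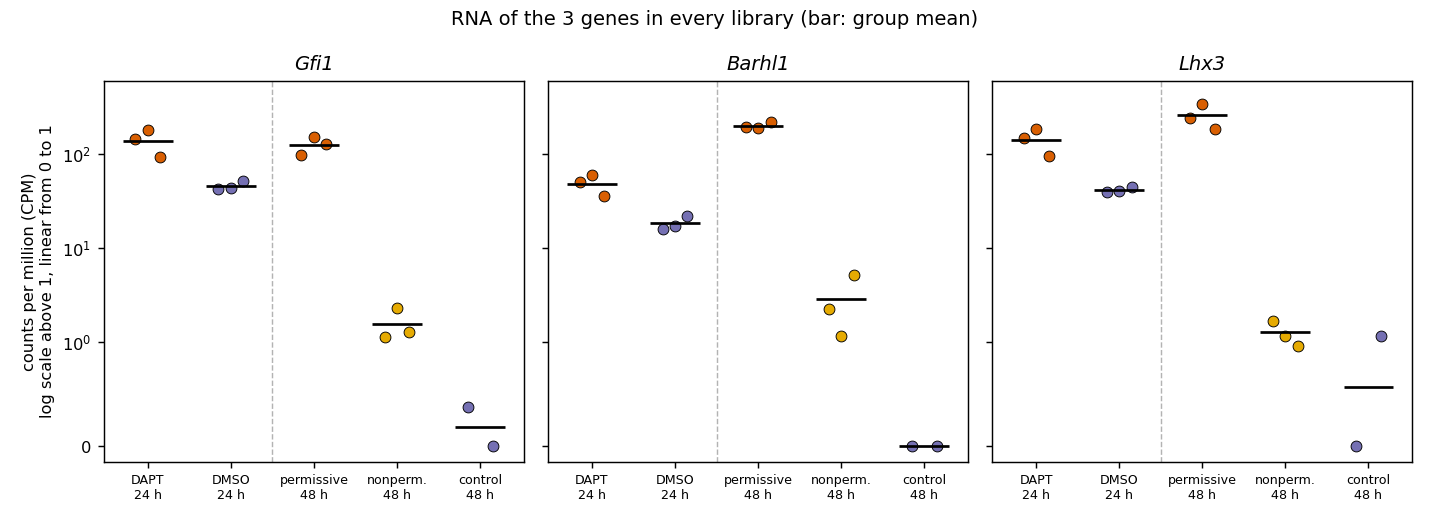
RNA of Gfi1, Barhl1 and Lhx3 in every library, in CPM on an axis that is logarithmic above 1 and linear from 0 to 1; each point is a library and each bar a group mean. Permissive libraries lie between 97.8 and 345 CPM, nonpermissive libraries between 0.960 and 5.12 CPM and control libraries between 0 and 1.14 CPM.

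At 48 h the comparison of permissive with control cells asked which genes are on in DAPT-treated cells that took up the Atoh1 reporter. All 3 genes rose and were nearly absent from the control, while 5.72% of the 13411 genes tested rose and 7.28% fell. Gfi1 was at 97.8, 151 and 129 CPM in permissive cells, against 0.374 and 0 CPM in control cells, that is 474, 451 and 320 counts against 2 and 0 counts. With so few control counts the fold is best given as a ratio of pooled levels, 535 with a 95% counting interval of 148 to 4420 (adjusted p = 7.35e-05, edgeR quasi-likelihood test). Barhl1 was at 195, 188 and 220 CPM in permissive cells and had no count in either control library. Taking 3 counts per control library as the floor, Barhl1 was at least 284-fold higher in permissive cells (adjusted p = 4.71e-05).

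Lhx3 was at 241, 345 and 186 CPM in permissive cells, against 0 and 1.14 CPM in control cells. The pooled ratio of Lhx3 was 572 with a counting interval of 223 to 2099, and the log2 fold change was 8.95 ± 0.93 (SE; adjusted p = 8.67e-05). All 4 control counts of Lhx3 lay in the second control library, and the fitted log2 value was 12.77 when that library was left out. Each of the 3 genes was higher in every permissive library than in every control library, which held for 20.5% of all genes tested. Counting intervals and floors cover counting error alone.

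Nonpermissive cells had been exposed to DAPT for the same 48 h, and in them the 3 genes were at 0.960 to 5.12 CPM and none passed against control. Only 0.0671% of all genes tested rose in nonpermissive against control cells and 0.127% fell, so few calls of any kind were made there. Gfi1 had 4 counts in each nonpermissive library (1.12, 2.28 and 1.28 CPM), against 2 and 0 counts in control libraries. These CPM values do not overlap, but the difference did not pass the test (pooled ratio 6.28, 95% counting interval 1.40 to 57.8, adjusted p = 0.477), and 10.1% of all genes were likewise higher in every nonpermissive library. Lhx3 had 6, 2 and 3 counts in nonpermissive libraries, against 0 and 4 counts in control libraries. Their levels overlap and did not pass the test (adjusted p = 0.863).

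Barhl1 is the one of the 3 for which nonpermissive cells were a borderline case. It had 8, 2 and 16 counts in nonpermissive libraries (2.23, 1.14 and 5.12 CPM), against 0 and 0 counts in control libraries, at least 4.0-fold higher with the floor of 3 counts per library. The adjusted p was 0.0661 in edgeR, and it was 0.0128 with DESeq2 and 0.000176 when genes with low counts were kept, so the call depends on the tool and the filter. Over all alternatives the number of genes called in this comparison also ran from 2 to 302, against 26 in edgeR.

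Within the DAPT cultures, permissive cells exceeded nonpermissive cells in all 3 genes, where 6.78% of all genes tested rose and 6.35% fell. Lhx3 had the largest difference, 258 ± 80.8 CPM in permissive cells against 1.26 ± 0.372 CPM in nonpermissive cells (SD, n = 3 each), a log2 fold change of 7.61 ± 0.72 (SE; adjusted p = 5.41e-05). Gfi1 averaged 126 ± 26.7 CPM against 1.56 ± 0.632 CPM in the same groups, a log2 fold change of 6.38 ± 0.62 (SE; adjusted p = 6.81e-05). Barhl1 averaged 201 ± 17.0 CPM against 2.83 ± 2.06 CPM, a log2 fold change of 6.07 ± 0.58 (SE; adjusted p = 8.22e-05). No permissive library overlapped a nonpermissive library in any of the 3, which held for 15.4% of all genes tested in that direction.

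The 48 h difference between permissive and control cells was larger than the 24 h difference between DAPT and DMSO cells for all 3 genes, when both were fitted together and the difference of the effects was tested. The adjusted p of that difference was 5.75e-05 for Gfi1, 3.68e-05 for Barhl1 and 0.000153 for Lhx3, while 2.68% of all genes tested differed in this direction and 2.95% in the other. On the log2 scale the effects differed by 7.39 ± 0.74 for Gfi1 and by 7.21 ± 0.80 for Lhx3 (SE), values that rest on 2 and 4 control counts. Without the control library that holds those counts they were 11.56 for Gfi1 (the first control library) and 12.44 for Lhx3 (the second). DMSO cells at 24 h had 39.6 to 51.9 CPM of Gfi1 and Lhx3 and 15.8 to 21.9 CPM of Barhl1, whereas control cells at 48 h had 0 to 1.14 CPM of any of them. The parts of time, sort and kit in that gap cannot be told apart.

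TPM values, transcripts scaled to a fixed total per library, which also divide by transcript length, allow levels of different genes to be set side by side. At 24 h the order was Lhx3, then Gfi1, then Barhl1 in all 6 libraries. With DAPT, Lhx3 stood at 102 to 198 TPM, Gfi1 at 69.0 to 138 TPM and Barhl1 at 30.2 to 53.7 TPM. With DMSO, Lhx3 stood at 41.7 to 49.3 TPM, Gfi1 at 32.5 to 39.3 TPM and Barhl1 at 14.1 to 18.7 TPM. In permissive cells at 48 h Barhl1 was above Gfi1 in every library, with 196, 109 and 153 TPM of Barhl1 and 87.5, 73.2 and 74.2 TPM of Gfi1. The parts of time, sort and kit in this difference from 24 h cannot be told apart. The ratio of Barhl1 to Gfi1 was 1.49 to 2.24 in permissive libraries, 0.382 to 0.438 in DAPT libraries and 0.413 to 0.480 in DMSO libraries. The ratio of Lhx3 to Gfi1 was 1.96 to 3.46 in permissive libraries, 1.44 to 1.48 in DAPT libraries and 1.25 to 1.33 in DMSO libraries. The third permissive library was the one in which Barhl1 (153 TPM) slightly exceeded Lhx3 (146 TPM).

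Across the 5 groups the TPM levels of each gene are set side by side here without a test, because kit and sort differ between the times. By mean TPM, Barhl1 and Lhx3 had the same order of groups. Gfi1 differed in having DAPT cells (107 TPM) above permissive cells (78.3 TPM). Gfi1 was highest in DAPT cells at 24 h (69.0 to 138 TPM) and in permissive cells (73.2 to 87.5 TPM), whose ranges overlap, followed by DMSO cells, nonpermissive cells (0.730 to 1.05 TPM) and control cells (0 to 0.320 TPM). Barhl1 was highest in permissive cells (109 to 196 TPM), followed by DAPT cells, DMSO cells, nonpermissive cells (0.550 to 3.42 TPM) and control cells (0 TPM), and no neighbours in that order overlap. Lhx3 overlapped between permissive cells (146 to 303 TPM) and DAPT cells, and again between nonpermissive cells (0.720 to 1.81 TPM) and control cells (0 to 0.950 TPM). In CPM the Lhx3 ranges of permissive cells (186 to 345 CPM) and DAPT cells (95.9 to 184 CPM) did not overlap.

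**Figure D2:**
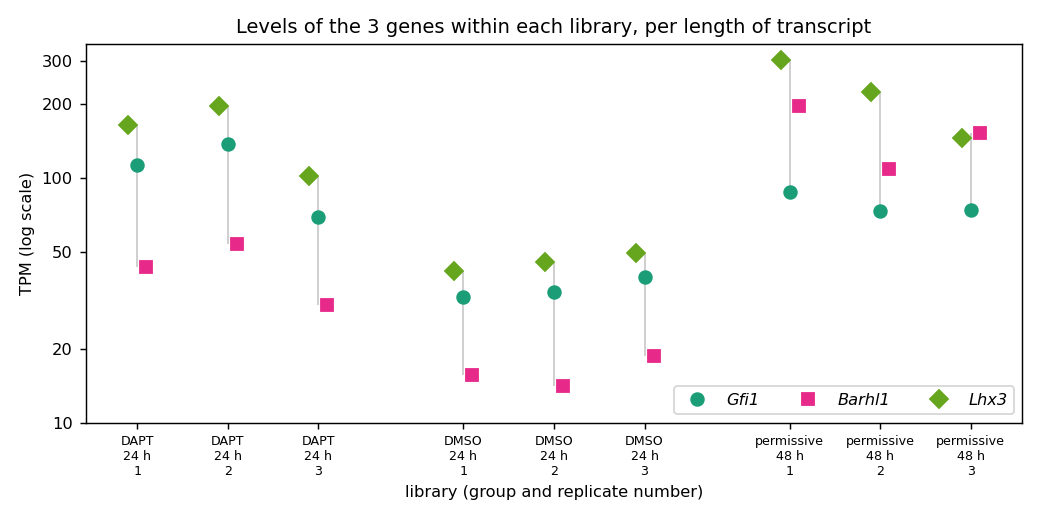
TPM of Gfi1, Barhl1 and Lhx3 within each library in which all 3 were well above 0, on a logarithmic axis; each column is a library, named by group and replicate number. Barhl1 is the lowest of the 3 in all 6 libraries of 24 h, and lies above Gfi1 in all 3 permissive libraries.

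The closest relatives of the 3 genes were nearly silent. Barhl2, the paralog of Barhl1, had 0 counts in all 14 libraries, and Gfi1b, the paralog of Gfi1 that acts in red blood cell and platelet precursors, had 0 to 3 counts. Lhx4, the paralog of Lhx3, was at 1.27, 1.44 and 1.12 CPM in DAPT libraries, against 0.660, 0.497 and 0.891 CPM in DMSO libraries, and at 5.78, 1.34 and 4.04 CPM in permissive libraries. Of the 3 paralogs Lhx4 alone was high enough to be tested, and it passed in no comparison.

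The genes whose pattern came closest to each factor were sought over the 14 RNA libraries, by Pearson's r of log2(CPM + 1) after each time point was centred on its own mean, among 10623 genes. These are descriptions of libraries that share groups and kits. For Gfi1 the 5 closest were Chrna10 (r = 0.992), a subunit of the hair cell's cholinergic receptor, then Cdk5rap2, Espnl, Mgat5b and Syt13. For Lhx3 they were Slc14a1 (r = 0.996), a urea transporter, then Cdh23, a cadherin of the tip link, Chrna10, the unconventional myosin Myo15 and Espnl. For Barhl1 they included Crmp1 (r = 0.993), Nrxn3, Rasd2 and Foxj1, a factor of motile cilia. Chrna10 and Espnl thus appear for both Gfi1 and Lhx3, and none of the genes named for Barhl1 appears in the others. Over the 48 h libraries alone, 1 of the 5 genes of Gfi1 and 2 of the 5 of Lhx3 came back. Among themselves the factors reached r = 0.986 for Gfi1 with Lhx3, 0.982 for Gfi1 with Barhl1 and 0.974 for Barhl1 with Lhx3.

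Other hair cell transcription factors moved both ways. Of 22 listed factors 20 could be tested. With DAPT at 24 h 10 rose and 3 fell, with a median log2 fold change of 0.51 against 0.01 over all genes. Of all genes tested 11.5% rose and 14.2% fell. Atoh1 was at 676 ± 38.1 CPM with DAPT against 70.9 ± 7.55 CPM with DMSO (SD, n = 3 each), and Pou4f3, a POU factor that acts with Gfi1 in hair cell survival, was at 1380 ± 167 CPM against 169 ± 9.18 CPM. The largest log2 rises at 24 h were those of Insm1, a zinc finger factor of early outer hair cells, by 5.59 ± 0.18 (SE; adjusted p = 8.05e-07), and of the bHLH factor Neurod6, by 5.52 ± 0.28 (adjusted p = 4.18e-06). Six2, Ikzf2 and Isl1 fell by 0.68, 0.74 and 0.41 on the log2 scale; the call of Ikzf2 was lost without the first DMSO library and that of Isl1 without any one of 4 libraries, the first DMSO, the third DMSO, the first DAPT or the second DAPT library.

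In permissive against control cells 8 of the 20 factors rose and 2 fell, with a median log2 fold change of 1.30 against 0.06 over all genes. Of all genes tested 5.72% rose and 7.28% fell. With the replicate number as a block 4 factors fell. Pou4f3 stood at 2429 ± 364 CPM in permissive cells (SD, n = 3), against 9.35 ± 2.91 CPM in control cells (SD, n = 2). Insm1 was lower at 48 h than at 24 h as a level, at 20.5 ± 4.29 CPM in permissive cells, and had no count in control cells. Lbh, a transcription cofactor, and Isl1 were the 2 factors that fell; the call of Lbh was lost without the second control library, and that of Isl1 without the first control or the third permissive library. In nonpermissive cells only Atoh1 of the 20 rose, at 46.2 ± 19.0 CPM in nonpermissive cells against 2.92 ± 0.898 CPM in control cells (adjusted p = 0.0127), a call that was lost without either control library or without the third nonpermissive library; DESeq2 called 3. Since Atoh1-GFP set the gate at 48 h, Atoh1 itself describes the sort. Against nonpermissive cells 9 factors rose and 3 fell, beside 6.78% and 6.35% of all genes tested.

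The LIM domain partners of Lhx3 did not move as a group. Of 9 tested at 24 h, 2 rose and 2 fell, and of 10 tested in permissive against control cells 2 rose and 2 fell, with median log2 fold changes of 0.07 and 0.68. Over all genes tested 11.5% rose and 14.2% fell at 24 h, and 5.72% rose and 7.28% fell in permissive against control cells. The number that fell at 24 h was 0 without the first DAPT library and 1 without the second DAPT, the first DMSO or the third DMSO library, and at 48 h it was 1 without either control library or the third permissive library. Lmo1, a LIM-only protein, rose in both, to 117 ± 36.3 CPM with DAPT against 27.5 ± 2.97 CPM with DMSO (SD, n = 3 each; adjusted p = 0.000168), and to 211 ± 132 CPM in permissive cells against 8.65 ± 4.30 CPM in control cells (adjusted p = 0.000907). At 24 h Ssbp3 rose as well, and Isl1 and Isl2 fell, calls that were lost without single libraries (the first DAPT library in both). In permissive cells Lmo3 rose and Ldb2 and Isl1 fell against control; the calls of Lmo3 and Ldb2 were lost without the second control library. Ldb2, a cofactor that joins LIM domains, was at 4.43 ± 2.41 CPM in permissive cells against 99.2 ± 11.3 CPM in nonpermissive cells (adjusted p = 0.00069). In nonpermissive against control cells none of the 10 passed in edgeR, and 1, Lmo2, passed with DESeq2 (adjusted p = 0.012, against 0.214 in edgeR; 17.8 ± 10.0 CPM in nonpermissive cells against 1.55 ± 0.982 CPM in control cells).

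Of 6 corepressors that act with Gfi1, Rcor2 moved with it in each comparison in which Gfi1 rose. Rcor2, a member of the CoREST complex, was at 77.2 ± 4.46 CPM with DAPT against 23.6 ± 7.58 CPM with DMSO, a log2 fold change of 1.71 ± 0.20 (SE; adjusted p = 0.000351). At 48 h it was at 139 ± 20.4 CPM in permissive, 25.6 ± 8.83 CPM in nonpermissive and 11.4 ± 1.93 CPM in control cells, and it passed in permissive cells against control (adjusted p = 0.000706) and against nonpermissive cells (adjusted p = 0.00225). Kdm1a, the demethylase of the complex, rose by 0.42 ± 0.08 on the log2 scale at 24 h alone (adjusted p = 0.00523), and the other 4, among them Hdac1 and Hdac2, passed in no comparison. Of all genes tested 11.5% rose at 24 h. In permissive cells 5.72% rose against control and 6.78% against nonpermissive cells.

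Genes of the differentiated hair cell rose together. Of 18 tested, 11 rose and none fell with DAPT at 24 h, with a median log2 fold change of 1.12; when the third DAPT library, the one with the lowest Gfi1, Barhl1 and Lhx3, was left out, 18 rose, and without the first DAPT or the first DMSO library 7 did. In permissive against control cells all 18 rose, with a median of 8.20, or 6.94 when the 3 genes without a control count are set at their lower bound. Against nonpermissive cells 17 rose. The shares of all genes tested that rose in these 3 comparisons were 11.5%, 5.72% and 6.78%. Cdh23 was at 111 ± 38.5 CPM with DAPT against 37.0 ± 7.43 CPM with DMSO, and at 371 ± 169 CPM in permissive cells against 0.586 ± 0.560 CPM in nonpermissive cells. Calb2, a calcium buffer, was the 1 of 18 that rose in nonpermissive against control cells (26.7 ± 7.31 against 2.84 ± 1.63 CPM, adjusted p = 0.0267), a call that was lost without any single library of these groups.

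Supporting cell markers fell where the 3 factors rose. Of 13, 12 fell with DAPT at 24 h (median log2 fold change -1.09), 10 fell in permissive against control cells (median -2.98) and 7 against nonpermissive cells (median -2.13). The shares of all genes tested that fell in these comparisons were 14.2%, 7.28% and 6.35%. Hes5, a direct target of Notch, was at 6.32 ± 2.96 CPM with DAPT against 1708 ± 149 CPM with DMSO. In nonpermissive against control cells Hes5 alone of the 13 fell, at 1.38 ± 1.21 CPM in nonpermissive cells against 555 ± 364 CPM in control cells (adjusted p = 0.00647). With the replicate number as a block 2 markers fell, and without the third nonpermissive library the Hes5 call was lost. The Notch target was thus low in nonpermissive cells, in which Gfi1, Barhl1 and Lhx3 stayed between 0.960 and 5.12 CPM.

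Early neuronal genes, which Gfi1 is known to repress in hair cells, moved both ways. Insm1, Isl1, Nhlh1, Nhlh2, Pou4f1 and Neurod1 stand both in this list and among the hair cell factors above. The counts of the 2 lists are therefore not separate results. Of 14 tested at 24 h, 5 rose and 1 fell, and of 12 tested in permissive against control cells 4 rose and 2 fell, with median log2 fold changes of 0.70 and 3.29, beside the shares over all genes of 11.5% and 14.2% at 24 h and of 5.72% and 7.28% at 48 h. At 24 h the number that rose was 3 with the replicate block or without the first or second DAPT or the first or second DMSO library. Without the third DAPT library 7 rose and 3 fell, and the one that fell in the full set was lost without the first DAPT, the second DAPT, the first DMSO or the third DMSO library. Elavl4, an RNA-binding protein of neurons, was at 8.32 ± 0.644 CPM with DAPT against 1.16 ± 0.218 CPM with DMSO (adjusted p = 7.13e-05), and at 6.98 ± 1.30 CPM in permissive cells against 1.12 ± 1.59 CPM in control cells, which did not pass (adjusted p = 0.26). The 4 that rose in permissive against control cells in edgeR were Nefm (adjusted p = 0.00168), Nefl (0.00213), Insm1 (0.00218) and Nhlh1 (0.00515). The call of Nhlh1 was lost without the first control library. Isl1 and Stmn2, a tubulin-binding protein, fell there (Stmn2 at 15.6 ± 7.21 against 93.9 ± 33.9 CPM, adjusted p = 0.00623). Markers of spiral ganglion neurons, 5 of which also stand in the neuronal list, summed to 264 to 702 CPM with DAPT and 276 to 304 CPM with DMSO, and 3 of 7 tested rose. At 48 h they summed to 130 to 217 CPM in permissive, 26.3 to 43.8 CPM in nonpermissive and 16.6 to 92.4 CPM in control cells, and 3 of 6 rose in permissive against control cells.

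Blood cells also express Gfi1, so their markers were read beside it. Of 11 blood and macrophage markers, Laptm5, a lysosomal membrane protein, alone was tested at 24 h and rose, at 48.6 ± 5.98 CPM with DAPT against 11.2 ± 4.95 CPM with DMSO (adjusted p = 0.000661). It was also the one that rose in permissive against control cells (102 ± 56.3 against 11.8 ± 9.54 CPM, adjusted p = 0.0202), a call that was lost without the first control or the third permissive library, while Spi1, a factor of myeloid cells, fell (adjusted p = 0.0133, lost without the second control library). The other 10 summed to 0.749 to 3.18 CPM with DAPT and 1.13 to 3.15 CPM with DMSO. At 48 h those 10 summed to 1.24 to 84.5 CPM in permissive, 17.7 to 57.0 CPM in nonpermissive and 35.9 to 59.6 CPM in control libraries, and the defining marker Ptprc had 1, 37 and 22 counts over the libraries of these groups. All 11 summed to 61.3 to 250.3 CPM in permissive, 22.8 to 84.5 CPM in nonpermissive and 41.0 to 78.2 CPM in control libraries. The part of these cells in the level of Gfi1 was not tested. Markers of further cell types moved as well, and their part in the results was not tested. Endothelium markers summed to 40.4 to 110 CPM in permissive, 83.4 to 219 CPM in nonpermissive and 11.8 to 35.7 CPM in control libraries. In permissive against control cells 2 of 5, Kdr and Pecam1, rose, beside 5.72% of all genes tested. Both calls were lost without the first control library. At 24 h endothelium markers summed to 0.656 to 2.82 CPM with DAPT and 1.51 to 3.21 CPM with DMSO. Mesenchyme markers summed to 416 to 524 CPM with DAPT and 249 to 337 CPM with DMSO. Of 7 tested there, 2 rose (Lum and Pdgfra) and 1 fell, beside 11.5% and 14.2% of all genes tested. At 48 h mesenchyme markers summed to 223 to 597 CPM in permissive, 1367 to 3385 CPM in nonpermissive and 562 to 2439 CPM in control libraries. Glia markers summed to 199 to 253 CPM with DAPT and 386 to 401 CPM with DMSO, and to 95.7 to 271 CPM in permissive, 519 to 740 CPM in nonpermissive and 493 to 927 CPM in control libraries.

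The chromatin around the genes was read from the called peaks of each library, joined into regions wherever peaks of any library shared at least 1 base. The lists held 87089 to 170984 ATAC peaks and 46284 to 114572 H3K27ac peaks, and the number of reads behind them is unknown. Fold enrichments are the authors' values for a peak over its local background. With 2 libraries per group the peaks are described and no test was made. All 3 genes lie on the minus strand of mouse build GRCm38 (mm10), Gfi1 at chr5:107716655-107725805, Barhl1 at chr2:28907680-28917984 and Lhx3 at chr2:26200212-26208249. Distances below run along the gene from its 5′ end.

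Every one of the 3 genes had regions that both permissive lists held and no other list did. For ATAC these permissive-only regions numbered 2 of 5 regions in both permissive lists around Gfi1, 5 of 10 around Barhl1 and 4 of 19 around Lhx3, against 18.3% of such regions in the whole genome. For H3K27ac they numbered 2 of 2 around Gfi1, 6 of 8 around Barhl1 and 5 of 8 around Lhx3, against 25.6% in the whole genome. Regions in both permissive lists and in neither control list numbered 2, 6 and 8 for ATAC (24.3% of such regions genome-wide) and 2, 6 and 6 for H3K27ac (39.3%). Regions in both permissive and in neither nonpermissive list numbered 2, 5 and 4 for ATAC (3.16% of all regions in the genome). The H3K27ac regions of this class numbered 2, 6 and 5 (2.9% of all regions). Unlike the shares before them, these are not shares of the regions in both permissive lists. On that base the genome held 11452 of 47696 for ATAC and 6750 of 23291 for H3K27ac. The 3 loci held 2 of 5, 5 of 10 and 4 of 19 for ATAC. Their H3K27ac regions were 2 of 2, 6 of 8 and 5 of 8. The ATAC share at Lhx3 was thus no higher than in the genome. As many or more permissive-only ATAC regions were found around 28.2%, 2.44% and 5.62% of 21887 protein-coding genes for Gfi1, Barhl1 and Lhx3, and as many or more H3K27ac regions around 21.5%, 1.51% and 2.93%. These counts also follow how many regions a window holds, 28, 59 and 67 ATAC and 35, 34 and 41 H3K27ac regions at the 3 genes. As a share of the regions in both permissive lists, the 4 of 19 ATAC regions at Lhx3 were near the genome's 18.3%.

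Regions that set nonpermissive lists apart from control lists were about as rare as in the whole genome. No H3K27ac region within 100 kb of any of the 3 genes was in both nonpermissive lists and in neither control list, where the loci hold 35, 34 and 41 regions (Gfi1, Barhl1 and Lhx3) and the share over the genome is 1.75%. For ATAC there were 0 of 28, 0 of 59 and 2 of 67, against 1.14% over the genome. Of the ATAC regions in both control lists, 0 of 2, 2 of 9 and 0 of 9 were in neither permissive list, against 16.4% genome-wide. For H3K27ac they were 0 of 0, 0 of 2 and 0 of 1, too few to set against the 20.9% genome-wide. A deposited −log10 q of at least 5 was then asked of every list. Regions in permissive and not control lists numbered 2, 0 and 4 for ATAC and 0, 2 and 2 for H3K27ac. The cut also takes peaks out of control and nonpermissive lists, so these need not be the regions counted before. At Gfi1, ATAC regions in permissive and not nonpermissive lists numbered 1 in place of 2. Most of the regions counted before the cut are thus weakly called in at least 1 permissive library. The second permissive H3K27ac list took just 4 different fold enrichment values over the 13 permissive-only regions of the 3 genes, where the first took 13, and it was the lower of the pair in 11 of 13.

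**Figure D3:**
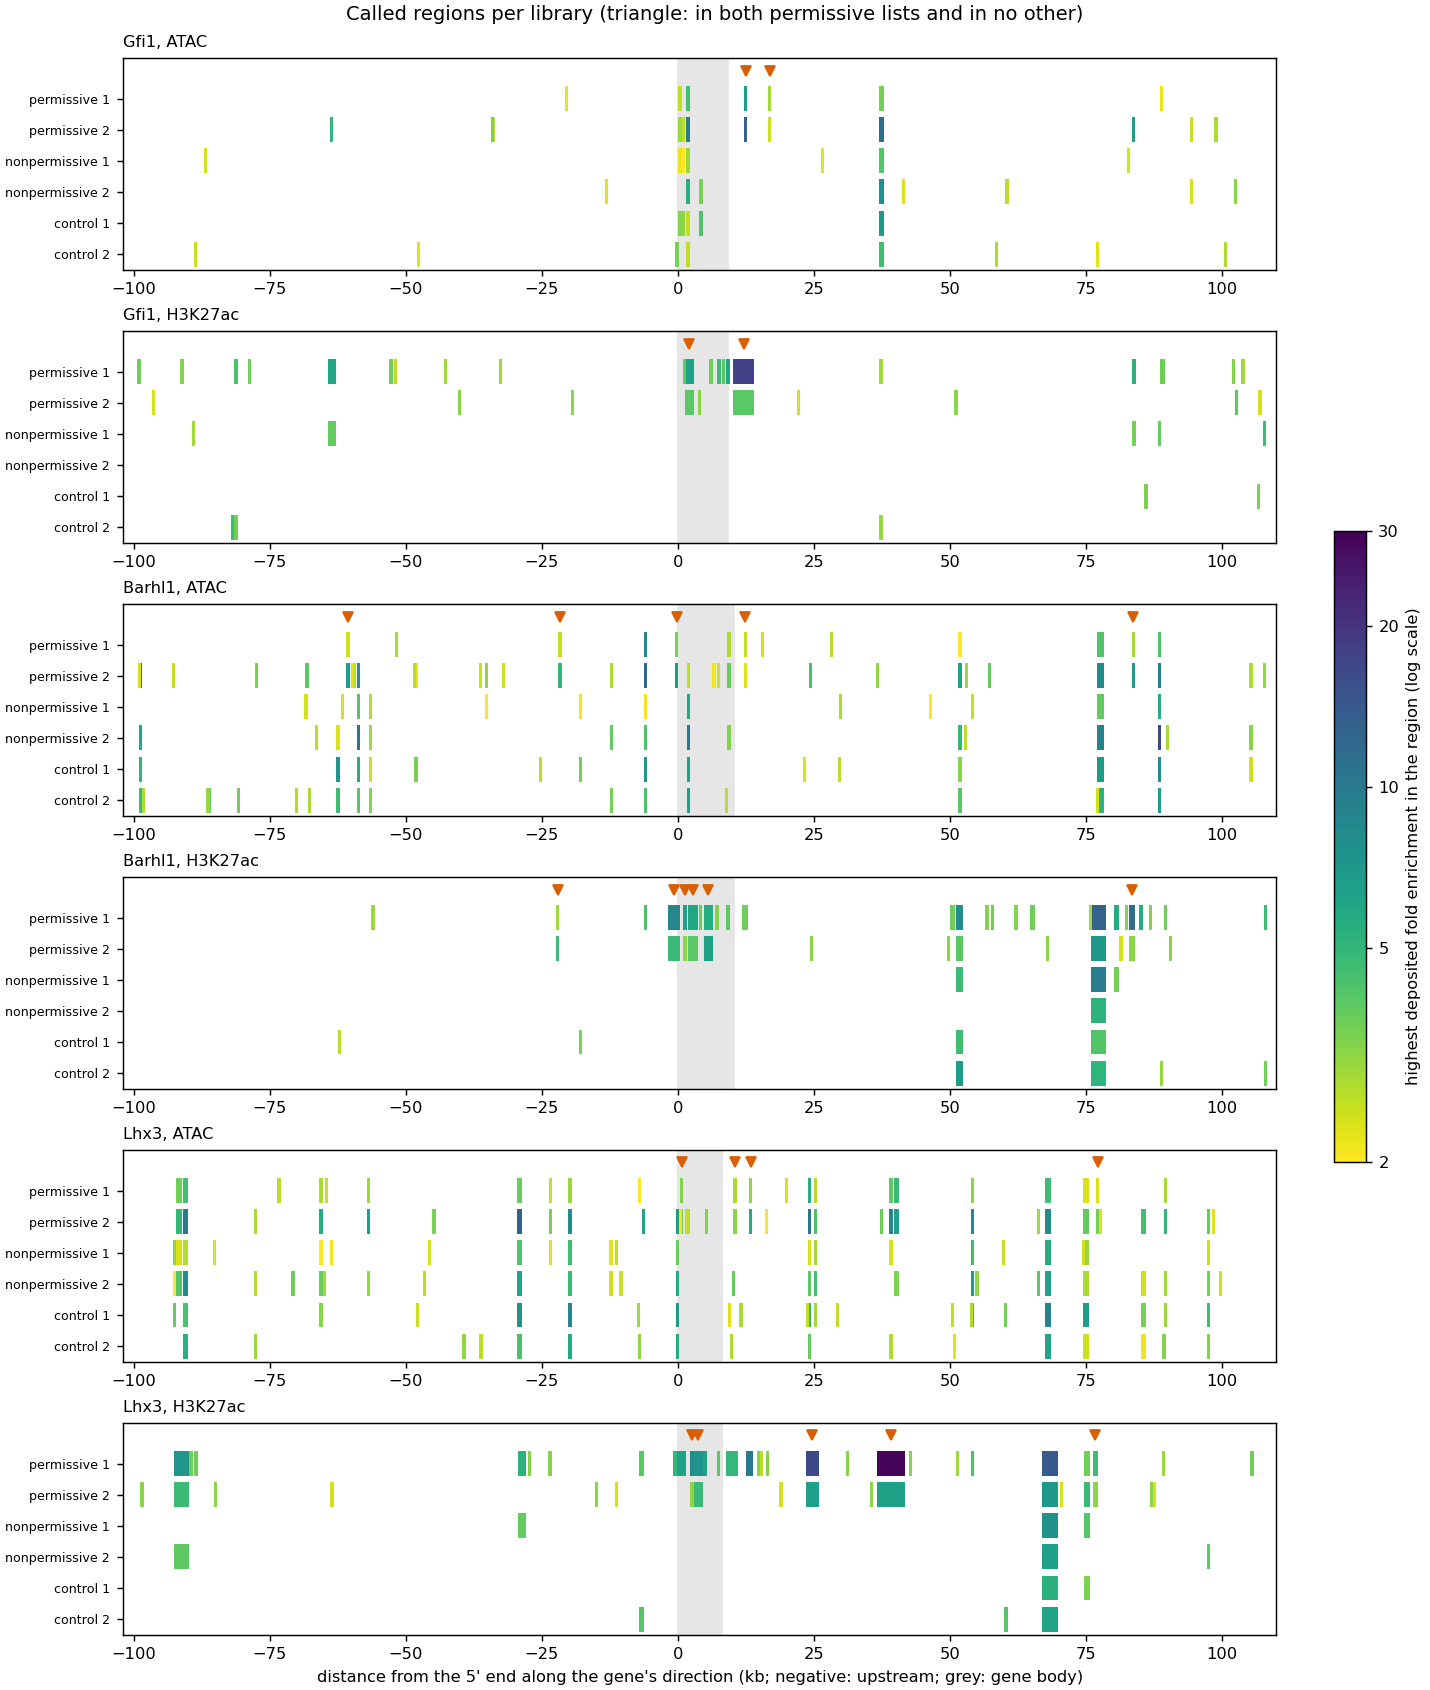
Called regions around Gfi1, Barhl1 and Lhx3 in each ATAC and H3K27ac library, by distance from the gene's 5′ end in kb; each row is a library, colour is the highest deposited fold enrichment on a logarithmic scale, grey is the gene body, and the shortest regions are drawn wider than they are. Triangles mark the 11 ATAC and 13 H3K27ac regions held by both permissive lists and no other.

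At Gfi1 the permissive-only signal lay just past the 3′ end of the gene. An ATAC region at chr5:107713022-107713629, 12.5 kb from the 5′ end, had fold enrichments of 6.67 and 12.6 in the permissive lists and no peak in the other 4. It sat inside an H3K27ac region at chr5:107711801-107715638 of 3838 bases, with 17.5 and 3.98 in permissive lists and none in the others. A second ATAC region at chr5:107709037-107709252 was weaker, with 2.94 and 2.47, and had no H3K27ac. Within the gene, an ATAC region at chr5:107723655-107724279 was open in all 6 libraries, at 4.49 and 9.87 in permissive, 3.03 and 5.35 in nonpermissive and 2.58 and 2.59 in control lists. H3K27ac over it, at chr5:107722855-107724536, was called in permissive lists alone, at 6.28 and 3.98. Open chromatin there was thus shared by all groups while the mark was not called outside permissive cells.

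At Barhl1 permissive-only regions of both kinds met at the 5′ end. The ATAC region chr2:28917867-28918491 had 3.44 and 6.79 in permissive lists and lay inside the H3K27ac region chr2:28917511-28919820, with 8.60 and 4.78. A further 3 H3K27ac regions, at chr2:28916429-28916963, chr2:28914308-28916062 and chr2:28911598-28913210, lay within the gene in permissive lists alone. The second of these lies partly over ATAC region chr2:28915766-28916385, which ran the other way: it had 5.96 and 10.2 in nonpermissive lists and 6.43 and 6.35 in control lists, but no peak in the first permissive list and 2.66 in the second. Farther out, an ATAC region at chr2:28834208-28834573, 83.6 kb downstream and within the gene Gtf3c4, had 2.88 and 6.76 in permissive lists and H3K27ac of 11.2 and 3.19. Another at chr2:28939592-28939920, 21.8 kb upstream, had 2.54 and 5.03, with H3K27ac of 2.98 and 4.78. The region chr2:28980201-28980743 in Cfap77, with 7.24 and 4.57 in control lists and 2.33 in the second nonpermissive list, had no peak in permissive lists.

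At Lhx3 the strongest permissive-only H3K27ac lay downstream, between genes, where the first permissive list had its highest fold enrichment of the 3 loci. The region chr2:26166511-26171589, 39.2 kb from the 5′ end and 5079 bases long, had 28.8 and 6.38 in permissive lists and none in the other 4. Beneath it the ATAC region chr2:26167667-26168488 had 4.83 and 6.35 in permissive lists and 3.36 in the second nonpermissive list, and chr2:26168795-26169455 had 3.90 and 8.60 in permissive, 2.42 in 1 nonpermissive and 2.78 in 1 control list. A second H3K27ac region, chr2:26182353-26184678, had 16.5 and 6.38 in permissive lists alone, over an ATAC region, chr2:26183842-26184421, that all 6 lists held, at 5.49 and 10.5 in permissive, 2.42 and 4.0 in nonpermissive and 4.99 and 3.74 in control lists. Inside the gene, permissive-only H3K27ac regions stood at chr2:26203702-26205272 (7.28 and 4.78) and chr2:26205354-26206029 (7.94 and 3.19). Permissive-only ATAC regions stood at chr2:26194549-26195154 (3.18 and 5.74) and, inside the gene, at chr2:26207514-26207832 (3.35 and 3.69). The 5′ end itself, chr2:26208142-26208607, was open in all 4 nonpermissive and control lists (3.71 to 6.95) and in the second permissive list (6.85). H3K27ac there was called in the first permissive list alone, at chr2:26206750-26208368 (6.28) and chr2:26208430-26209184 (4.96).

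Permissive-only regions of the 2 assays overlapped at each of the 3 genes. Of the permissive-only ATAC regions, 1 of 2 at Gfi1, 3 of 5 at Barhl1 and 1 of 4 at Lhx3 overlapped a permissive-only H3K27ac region, against 13.9% of 8705 such ATAC regions in the genome. The remaining permissive-only ATAC regions at Lhx3 overlapped H3K27ac regions that the first permissive list alone held. At Barhl1 this held for chr2:28905498-28905885, while chr2:28978536-28978908 overlapped no H3K27ac region. The numbers per locus are small and no test was made.

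Promoters are printed for start sites that these regions touch, from RefSeq on build GRCm38.p6, 250 bases before to 50 after a start site. They read 5′ to 3′ on the gene's strand. The outer Gfi1 and the inner Lhx3 promoter are described below and not printed. Capitals mark matches, on either strand, to the E-box CAGNTG bound by bHLH factors such as Atoh1, to AAATCNC with the core of the Gfi1 motif, and to TAATTA, a homeodomain motif of the kind bound by Lhx3 and Barhl1. Of 32851 promoters 51.4% hold CAGNTG, 16.3% its form CAGCTG, 11.7% AAATCNC and 5.29% TAATTA.
Gfi1, inner start site, chr5:107724294-107724593: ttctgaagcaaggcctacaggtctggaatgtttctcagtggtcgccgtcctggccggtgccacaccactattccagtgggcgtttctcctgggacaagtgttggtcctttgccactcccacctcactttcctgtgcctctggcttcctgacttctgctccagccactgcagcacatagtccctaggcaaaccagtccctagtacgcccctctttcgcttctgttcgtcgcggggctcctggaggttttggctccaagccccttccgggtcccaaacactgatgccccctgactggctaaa
Barhl1, outer start site, chr2:28916619-28916918: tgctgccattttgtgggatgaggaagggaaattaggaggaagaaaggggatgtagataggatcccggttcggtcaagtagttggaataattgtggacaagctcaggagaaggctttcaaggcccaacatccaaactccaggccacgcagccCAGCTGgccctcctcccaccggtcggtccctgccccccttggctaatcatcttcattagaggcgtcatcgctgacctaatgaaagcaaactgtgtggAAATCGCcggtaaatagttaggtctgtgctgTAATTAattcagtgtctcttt
Barhl1, inner start site, chr2:28912446-28912745: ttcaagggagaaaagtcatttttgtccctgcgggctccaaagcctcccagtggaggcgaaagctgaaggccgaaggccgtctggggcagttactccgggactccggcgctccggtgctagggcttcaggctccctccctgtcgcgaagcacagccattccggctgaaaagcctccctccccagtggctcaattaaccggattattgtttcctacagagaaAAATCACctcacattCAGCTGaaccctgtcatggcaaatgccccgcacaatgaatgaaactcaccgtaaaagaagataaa
Lhx3, outer start site, chr2:26208200-26208499: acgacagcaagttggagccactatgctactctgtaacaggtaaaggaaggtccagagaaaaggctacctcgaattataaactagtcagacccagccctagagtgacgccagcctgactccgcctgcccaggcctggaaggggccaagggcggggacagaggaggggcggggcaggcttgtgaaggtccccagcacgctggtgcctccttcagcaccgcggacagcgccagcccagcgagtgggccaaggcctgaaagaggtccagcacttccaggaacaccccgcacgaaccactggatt
Both Barhl1 start sites lie inside the gene body given above, and both promoters lay in permissive-only H3K27ac regions. Each holds 1 CAGCTG and 1 AAATCNC, while the outer one also holds 1 TAATTA. The inner Gfi1 promoter lay partly in a permissive-only H3K27ac region and the outer Lhx3 promoter in the ATAC region open in 5 of 6 lists. None of the 4 letter patterns is in these windows. The outer Gfi1 promoter (chr5:107725756-107726055) and the inner Lhx3 promoter (chr2:26206526-26206825) each hold 1 CAGNTG match. They were touched only by regions that a single list held. A match describes letters and does not show a bound site.

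Genes next to the 3 factors behaved differently from one another. Of 10 protein-coding neighbours within 100 kb 9 were tested. With DAPT at 24 h 3 rose and 1 fell, where 11.5% of all genes tested rose and 14.2% fell. In permissive against control cells 2 rose and 1 fell (5.72% and 7.28% over all genes). Against nonpermissive cells 4 rose and 1 fell (6.78% and 6.35%). None passed in nonpermissive against control cells (0.0671% and 0.127%). Around Gfi1 neither Evi5 (106 ± 4.31 CPM with DAPT against 112 ± 8.16 CPM with DMSO, and 87.2 ± 19.3 CPM in permissive against 93.5 ± 6.34 CPM in control cells) nor Rpap2 passed in any comparison. Around Barhl1, Cfap77, a ciliary protein gene upstream of it, was at 149, 96.4 and 33.2 CPM in permissive cells, 0.558, 0 and 0.320 CPM in nonpermissive cells and 3.74 and 0 CPM in control cells (adjusted p = 0.0043 against control). At 24 h Cfap77 was at 2.33 ± 1.16 CPM with DAPT against 1.58 ± 0.362 CPM with DMSO and did not pass (adjusted p = 0.381), unlike Barhl1.

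Gtf3c4, a subunit of the transcription factor TFIIIC that holds a permissive-only region of each assay, was at 184 ± 20.6 CPM with DAPT against 106 ± 16.7 CPM with DMSO (adjusted p = 0.00256), and at 219 ± 29.4 CPM in permissive cells against 53.9 ± 13.7 CPM in nonpermissive cells (adjusted p = 0.00323) and 62.7 ± 1.51 CPM in control cells (adjusted p = 0.0145, lost without either control library). Around Lhx3, Qsox2, which lies just upstream of Lhx3, rose at 24 h (69.4 ± 3.0 CPM with DAPT against 46.2 ± 4.10 CPM with DMSO, adjusted p = 0.0022) and did not pass in permissive against control cells (adjusted p = 0.29). Nacc2, a BTB domain repressor downstream of Lhx3, fell in both, to 64.3 ± 6.87 CPM with DAPT against 152 ± 37.2 CPM with DMSO and to 16.9 ± 6.55 CPM in permissive cells against 92.1 ± 1.49 CPM in control cells (adjusted p = 0.0041).

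**Figure D4:**
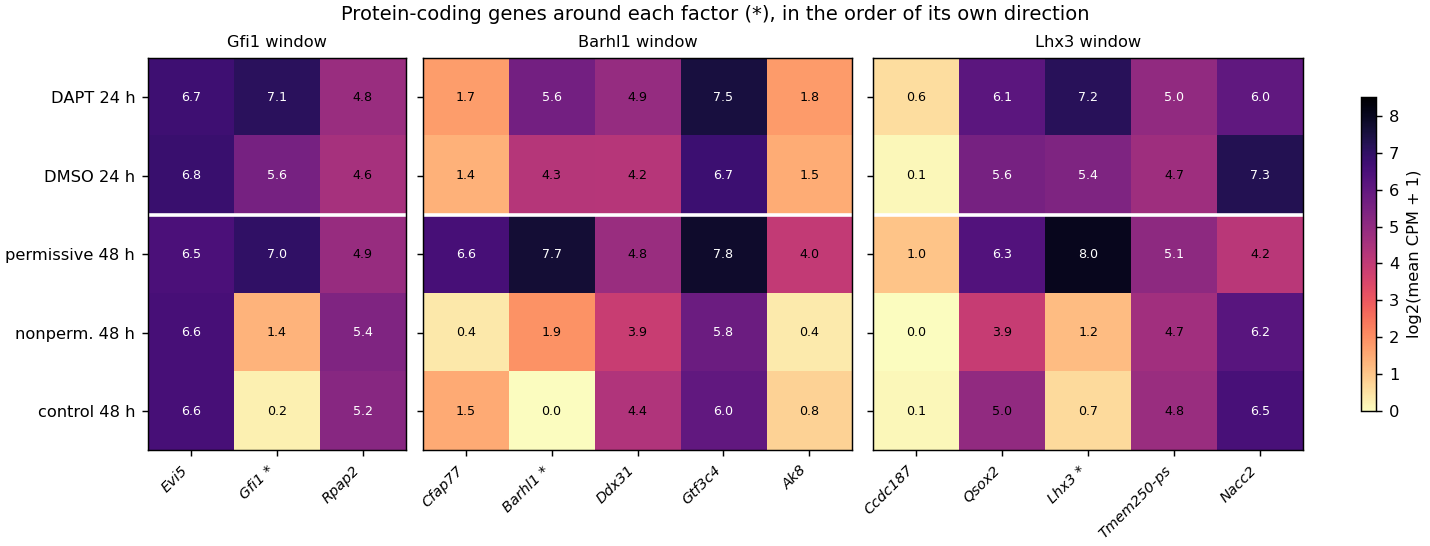
Mean level of the protein-coding genes within 100 kb of each factor (starred), as log2(mean CPM + 1) by colour and number, in columns ordered along the factor's own direction and rows of DAPT and DMSO at 24 h above permissive, nonpermissive and control at 48 h. Cfap77 is high in permissive cells alone, Nacc2 is lowest there, and Evi5 and Rpap2 around Gfi1 change little.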

How the data were processed

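RNA was measured in 14 libraries, and ATAC and H3K27ac CUT&RUN in 6 each. The deposited RNA tables hold expected counts and TPM per gene, made by the authors with STAR and RSEM on mm10, per the submitters' processing notes, which give no versions and also name Bowtie2, MACS2, UMI-tools and DESeq2. The deposited peak lists, called per library, hold a fold enrichment (a ratio over local background) and −log10 p and q values from the authors' peak caller; read numbers behind them were not used here. Identifiers were matched to symbols for 48349 of 48709.

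Expected counts were rounded and tested in R 4.3.3 with edgeR 4.0.16 (quasi-likelihood test, filterByExpr, TMM scaling, Benjamini-Hochberg adjustment over all genes tested, threshold 0.05). The 24 h libraries were fitted alone, the 48 h groups in 1 fit, and the difference of effects over all 14 libraries. CPM divide by the library total of the genes kept by filterByExpr, scaled by the TMM factor. The script was tested on simulated data. Alternatives were DESeq2 1.42.0, another scaling, no filter, the replicate number as a block, fits of 2 groups alone and each library left out. Same-numbered permissive and nonpermissive libraries deviated together (r = 0.53, 0.13 and 0.12 over 9475 genes) and were read as pairs from the data, since no label states what a number shares; the second permissive with the third nonpermissive library gave 0.16 and the third with the second 0.096, so the first pair alone stands out. Total counts of 2165338 to 13158897 set the precision: at 48 h, 3 counts correspond to a mean of 0.708 CPM in control libraries.

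Peaks were merged into regions by at least 1 shared base and kept within 100 kb of a gene body. The 3 genes and all lists were chosen with earlier results of these data known. Genes were named by rule: the 3 genes, their paralogs, the 5 most alike in pattern (mean of at least 10 CPM in their highest group), from each list up to 4 that passed and those that moved against the rest. The neighbouring genes and Ptprc, Stmn2, Hdac1 and Hdac2 were named after their values were seen. Peak sequences and proteins were not used here. One gene that the rule names is not reported here.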

Additional observations from a re-analysis of the deposited data

Results flagged for a closer look

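For each of the 3 genes the effect in 1 experiment differed from that in the other by a test of the difference itself. The 48 h difference between permissive and control cells exceeded the 24 h difference between DAPT and DMSO cells for Gfi1 (adjusted p = 5.75e-05, edgeR quasi-likelihood test over 14 libraries), for Barhl1 (adjusted p = 3.68e-05) and for Lhx3 (adjusted p = 0.000153). The highest adjusted p with any 1 library left out was 0.000667 for Gfi1, 0.000667 for Barhl1 and 0.000878 for Lhx3. The sizes rest on control libraries with 2, 0 and 4 counts, and time, sort and kit cannot be told apart.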

How the results depend on the processing

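Of 195 alternative values of the tests of Gfi1, Barhl1 and Lhx3, 193 kept their direction and their side of the threshold. The exceptions are Barhl1 in nonpermissive against control cells, whose fitted log2 value of 6.37 became 6.11 with DESeq2 (adjusted p = 0.0128) and 6.36 without a filter (adjusted p = 0.000176); with 1 library left out its adjusted p was 0.0595 to 0.288. The replicate block changed no call of the 3 genes. At 24 h same-numbered libraries did not deviate together (r = -0.017, -0.065 and -0.063), and the replicate block called 3328 genes there against 3900; in permissive against control cells it called 2058 against 1743. It gave 4 in place of 2 hair cell factors lower in permissive against control cells, and 2 in place of 1 supporting cell marker lower in nonpermissive against control cells.

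In nonpermissive against control cells, 26 genes passed, against 155 with DESeq2, 302 without a filter and 49 with 2 groups alone in the fit. There the hair cell differentiation genes that rose were 5 without a filter and 0 with 2 groups alone (1 in edgeR), the hair cell factors 3 with DESeq2 and 3 without a filter (1), and the supporting cell markers that fell 2 with DESeq2, 3 without a filter and 2 with 2 groups alone (1). Without a filter 1 supporting cell marker rose in permissive against nonpermissive cells, where none did otherwise.

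A deposited −log10 q of at least 5 was asked of peaks in every list. Regions counted after it need not be among those counted before. ATAC regions in permissive and not control lists then numbered 0 in place of 6 at Barhl1 and 4 in place of 8 at Lhx3. Those in permissive and not nonpermissive lists numbered 1 in place of 5 at Barhl1 and 1 in place of 2 at Gfi1. The number in nonpermissive and not control lists at Lhx3 was 0 in place of 2. H3K27ac regions in permissive and not control lists numbered 2, 0 and 2 at Barhl1, Gfi1 and Lhx3, in place of 6, 2 and 6. Those not in nonpermissive lists numbered 1, 0 and 2, in place of 6, 2 and 5. A 50 kb window, which holds fewer regions, left 0 of 2 control regions and 3 of 5 permissive regions not in nonpermissive lists at Barhl1, and at Lhx3 1 of 2 nonpermissive and 5 of 8 permissive regions not in control lists. Lists cut to the shortest gave 1 in place of 2 ATAC regions at Gfi1 in both permissive classes. At Lhx3 they gave 1 control region in place of 0. Peaks joined at 50% of the shorter gave 1 nonpermissive region there in place of 2.

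Leaving out 1 list relaxes the demand for both lists of that group. ATAC regions in permissive and not control lists were then 2 to 8 at Gfi1, 6 to 23 at Barhl1 and 8 to 20 at Lhx3, and not in nonpermissive lists 2 to 7, 5 to 22 and 4 to 14. Nonpermissive and not control regions were 0 to 5, 0 to 6 and 2 to 13, and control and not permissive regions 0 to 6, 2 to 10 and 0 to 10. For H3K27ac the same classes, in the same order of genes, were 2 to 19, 6 to 23 and 6 to 27, then 2 to 19, 6 to 23 and 5 to 26, then 0 to 5, 0 to 1 and 0 to 2, then 0 to 2, 0 to 2 and 0 to 1. With 1 RNA library left out, genes passing numbered 2573 to 4948 at 24 h, 2 to 40 in nonpermissive against control, 1066 to 1738 in permissive against control and 1215 to 1796 in permissive against nonpermissive cells. Hair cell differentiation genes that rose were 7 to 18 at 24 h and 0 to 1 in nonpermissive cells. Hair cell factors that rose in nonpermissive cells were 0 to 1, and those that fell were 1 to 4 at 24 h, 1 to 3 in permissive against control and 1 to 4 in permissive against nonpermissive cells; supporting cell markers that fell in nonpermissive cells were 0 to 2. Where a control library was left out, the lone one was assumed to vary like the other groups. The cause was not tested except where the construction shows it. Depth limits the nonpermissive and control values, which rest on 0 to 16 counts per library.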
